A study of Mus musculus with 6 samples.

Results

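The kinesin family was compared between soft palates of wild-type (control) mouse embryos and of Dlx5-/- embryos, in which the homeobox transcription factor gene Dlx5 is disrupted, at stage E14.5. Members were the rows of the deposited gene table whose symbol is Kif followed by a number and at most 1 letter from a to c, which gave 37 of 49492 rows. By textbook role they fell into 11 genes for transport along axons, 12 for mitosis, 6 linked to cilia and 8 with other roles. There were 3 libraries in each group, made from the posterior part of the palate, and the labels give neither the background strain nor the number of embryos in a library. The labels name no Cre driver or conditional allele for the knockout. They also do not tie a library to an embryo, and the p-values therefore reflect the spread among these libraries, which may be technical.

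Kinesins are motor proteins that use ATP to move along microtubules or to take them apart. Neurons rely on a subset of them to carry vesicles, mitochondria and cytoskeletal proteins from the cell body into the axon, although several of these motors are also made by most other cells. Dividing cells use another subset around mitosis, where these motors build the spindle, move chromosomes and complete cell separation.

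Levels are given as CPM, counts scaled to a common library size, after TMM scaling, which adjusts for the composition of each library, and as mean ± SD of 3 libraries. Libraries held 6891798 to 11922442 estimated counts. Dlx5 itself stood at 26.1, 15.7 and 16.2 CPM in the controls and at 0.829, 1.63 and 1.28 in the knockouts, with no overlap between the groups; it was the gene that edgeR called at an adjusted p of 0.05 (0.0205). Knockout replicate 3 stood apart: its mean correlation with the other libraries was 0.959, against 0.970 to 0.976 for the rest, and 8 brain marker genes summed to 300.2 CPM in it against 18.4 to 41.2 CPM elsewhere. Of the palate mesenchyme markers all 8 passed the expression filter, Tbx22 being the lowest, as did all 6 of oral epithelium and all 8 of skeletal muscle.

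Axonal transport kinesins had lower estimates in the knockout and mitotic kinesins higher ones. All 11 axonal genes lay below 0, with a median log2 fold change of -0.44, and all 11 mitotic genes that passed the filter (a mean of at least 1 CPM) lay above 0, with a median of 0.28. Over all 16218 genes tested the median was 0.01, and 47.5% lay below 0. No kinesin passed an adjusted p of 0.05 in edgeR's quasi-likelihood test with all libraries, where 0.00617% of genes were called lower and 0% higher. In the same test, 10 of the 35 measured kinesins were lower and 5 higher at an unadjusted p of 0.05, against 7.23% and 5.6% of genes. At an adjusted p of 0.05 DESeq2 called 6 kinesins, all lower (Kif1a, Kif1b, Kif3c, Kif5c, Kif21a and Kif26b), against 2.36% of genes called lower and 0.728% higher. Limma-trend called 2, Kif5c and Kif21a, against 0.543% lower and 0.0555% higher. In edgeR without an expression filter 8 were called, 7 lower and Kif20a higher, against 1.46% and 0.817% of genes, and with a filter of 5 CPM only Kif5c, against 0.543% and 0.0479%.

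Weaker thresholds took in more members. At an unadjusted p of 0.05, 8 of 11 axonal genes were lower, against 7.23% of all genes, and 5 of 11 mitotic genes were higher, against 5.6%. With library totals in place of TMM fewer genes were called in both directions, 5.77% lower and 2.79% higher, and the members' counts became 5 and 1. At an adjusted p of 0.1 (edgeR), 5 axonal genes were lower, against 1.58% of all genes, and 1 mitotic gene was higher, against 0.259%. The lowest control library lay above the highest knockout library for 6 axonal genes, against 9.71% of all genes, and knockouts lay above controls without overlap for 7 mitotic genes, against 9.48%. The axonal count of 8 became 5 without control replicate 2, against 5.09% of all genes, and 9 without knockout replicate 3, against 8.27%. The mitotic count of 5 became 3 without control replicate 2 (3.72% of all genes), 2 without control replicate 3 (3.47%), 3 without knockout replicate 2 (5.51%) and 7 without control replicate 1 (5.05%). DESeq2 gave 3 mitotic genes, against 4.13%.

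**Figure D1:**
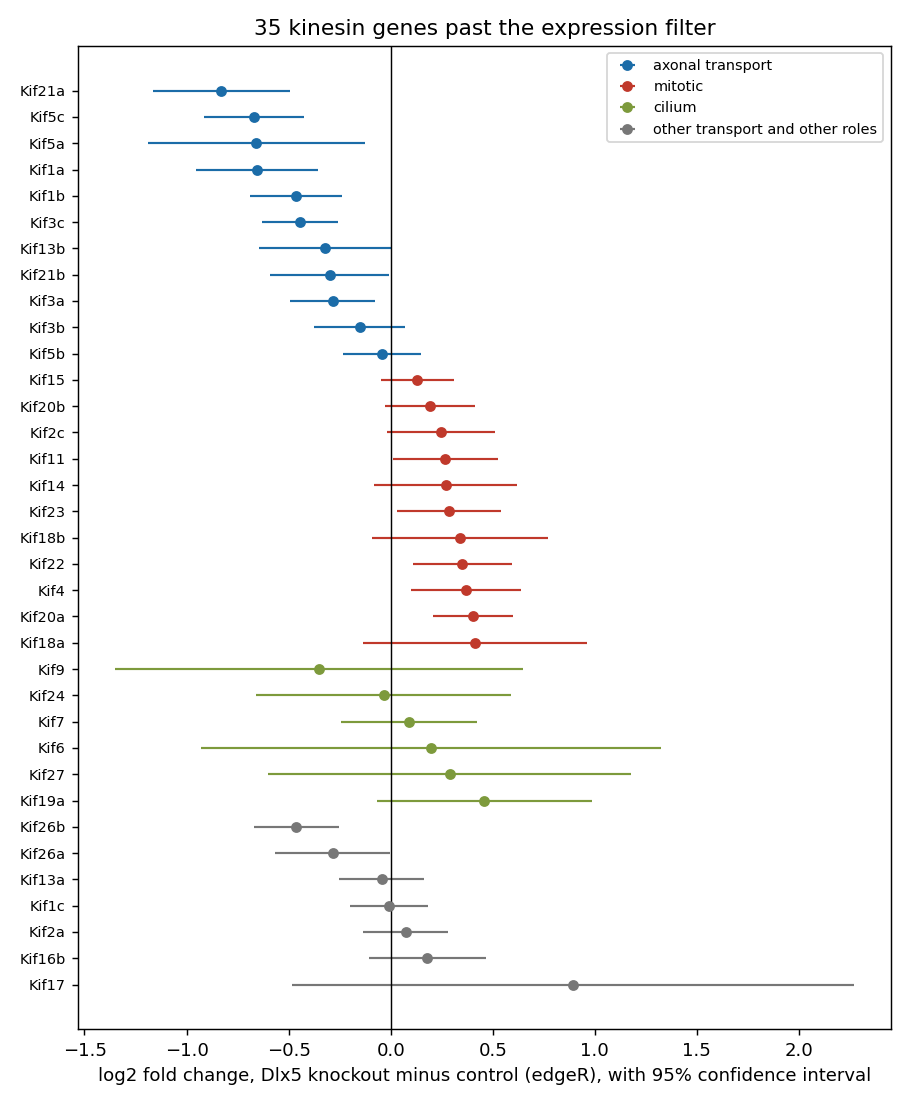
Each point is the edgeR log2 fold change (knockout minus control, x axis) of a kinesin gene with its 95% confidence interval, coloured by role. The 11 axonal genes lie left of 0 with Kif21a lowest at -0.83, and the 11 mitotic genes lie right of 0, up to Kif18a at 0.41, although several intervals in both groups include 0.

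The axonal motors with the lowest estimates were Kif21a (chr15:90933276-91049948), Kif5c (chr2:49619298-49774778), Kif5a (chr10:127225696-127263348) and Kif1a (chr1:93015464-93101951), with gene positions from GENCODE M21 (GRCm38). Kif21a encodes a motor that also limits microtubule growth and is mutated in a congenital eye-muscle nerve disorder. It had control levels of 127, 161 and 133 CPM and knockout levels of 92.4, 81.0 and 64.4 CPM. No knockout reached the lowest control, and the estimate was -0.83 on the log2 scale (95% confidence interval -1.16 to -0.49; edgeR adjusted p = 0.0610), or 56.3% of the control level. Kif5c encodes a conventional kinesin heavy chain enriched in neurons. Its control libraries held 256, 325 and 267 CPM and its knockout libraries 188, 167 and 179, again without overlap. The estimate was -0.67 on the log2 scale, with an SE of 0.11 and an edgeR adjusted p of 0.0549. Kif1a, the motor for synaptic vesicle precursors, stood at 231, 285 and 225 CPM in the controls and at 143, 146 and 182 in the knockouts. The groups did not overlap, and the estimate was -0.65 on the log2 scale, with an SE of 0.13 and an edgeR adjusted p of 0.0799.

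Kif5a, the neuronal heavy chain needed for neurofilament transport and mutated in hereditary spastic paraplegia, differed among the knockout libraries more than any other axonal motor. It had control levels of 244, 303 and 267 CPM and knockout levels of 129, 139 and 247 CPM. Knockout replicate 3 lay within the control range while the other knockouts held about the same low level. With all libraries the estimate was -0.66 on the log2 scale, with an SE of 0.23 and an edgeR adjusted p of 0.277, and without knockout replicate 3 it was -1.02 (adjusted p = 0.0149, edgeR). The synaptic genes Snap25 and Syt1 were also high in that library, at 156 and 122 CPM, against 26.0 to 79.5 CPM for either gene in the other 5. Whether the brain transcripts of that library account for the Kif5a value was not tested.

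Kif1b and Kif3c had smaller differences, with narrow spreads except among the Kif1b controls (SD 50.1 CPM). Kif1b, which carries mitochondria and synaptic vesicle precursors, stood at 414, 490 and 395 CPM in the controls and at 299, 325 and 317 in the knockouts. Kif3c, the neuron-enriched partner in heterodimeric kinesin-2, had control levels of 91.0, 103 and 98.0 CPM and knockout levels of 70.7, 69.3 and 74.8 CPM. Both showed no overlap between groups. Their log2 fold changes were -0.46 for Kif1b (SE 0.10, edgeR adjusted p of 0.0907) and -0.44 for Kif3c (SE 0.08, edgeR adjusted p of 0.0694). Kif3c shares 2617 exonic bases with an antisense gene. Whether the counting used strand is not stated, so reads of overlapping genes such as these cannot be told apart.

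The remaining axonal members are motors that most cell types make, apart from Kif21b, which is enriched in neurons. Kif3a, the shared subunit of kinesin-2, which also drives transport into cilia, stood at 61.2, 67.2 and 64.0 CPM in the controls and at 47.5, 53.7 and 56.7 in the knockouts, without overlap (log2 fold change -0.28). Kif13b, a carrier of receptors and polarity proteins, had a log2 fold change of -0.32 and Kif21b one of -0.30, with overlapping groups; the Kif13b estimate was -0.20 without control replicate 2. Kif3b, the usual partner of Kif3a, was at -0.15, and at -0.23 without knockout replicate 2. Kif5b, the conventional heavy chain of all tissues, had control levels of 199, 216 and 195 CPM and knockout levels of 184, 203 and 206 CPM. Its log2 fold change was -0.04 (95% confidence interval -0.23 to 0.15; adjusted p = 0.885, edgeR), and the estimate turned positive without control replicate 2 or knockout replicate 1. None of the other 10 axonal genes changed sign when any single library was left out.

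Without knockout replicate 3, 5 axonal genes passed an adjusted p of 0.05 in edgeR, all lower, against 0.937% of all genes called lower and 0.074% higher in that fit. They were Kif1a (adjusted p = 0.0329), Kif3c (0.0485), Kif5a (0.0149), Kif5c (0.0395) and Kif21a (0.0383). A subset of 5 axonal members taken as neuron-enriched was Kif1a, Kif3c, Kif5a, Kif5c and Kif21b. It had a median log2 fold change of -0.65 with all libraries, against -0.44 for the whole axonal list. Both lists were chosen with earlier results of these data known.

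Neuron markers were lower beside the axonal motors. Of 15 such genes, among them Tubb3, Nefl, Stmn2 and Elavl3, 14 had estimates below 0, against 47.5% of all genes, with a median of -0.79, and for 13 the knockout libraries lay below all controls, against 9.71%. None of the 15 was at 0 in any library. Summed per kilobase of exon, their levels were 1340, 1656 and 1347 in controls and 918, 809 and 614 in knockouts, in CPM per kb. The part of these markers in the axonal kinesin values was not tested, and in bulk tissue fewer neurons and less RNA per neuron cannot be told apart. Schwann cell and satellite glia markers, which belong to the same nerves, had a median of 0.27 over 7 genes. Of these 7, 0 passed an unadjusted p of 0.05, against 7.23% of all genes lower and 5.6% higher, so the count is uninformative. Oral epithelium markers were lower in 5 of 6 estimates, with a median of -0.29, and the keratin Krt14 (-0.97) and the cadherin Cdh1 (-0.51) were lower without overlap. Their summed level was 157 to 255 CPM in the controls and 144 to 171 CPM in the knockouts, and their part in the kinesin values was not tested.

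Partners of these motors showed lower estimates as well. Of 18 measured genes for kinesin light chains, cargo adaptors, dynein and dynactin, 16 lay below 0, with a median log2 fold change of -0.22. At an unadjusted p of 0.05, 9 were lower and 0 higher, against 7.23% and 5.6% of all genes. Klc1, the main neuronal kinesin light chain, which binds Kif5 heavy chains and their cargo, stood at 230 ± 15.7 CPM in the controls and at 158 ± 4.13 in the knockouts (estimate -0.54 on the log2 scale, edgeR adjusted p = 0.0549). Its groups did not overlap. Dync1h1, the heavy chain of the dynein motor that runs in the opposite direction, measured 525 ± 13.1 and 406 ± 54.9 CPM. Klc2, another light chain, was at -0.47 with overlapping groups, and the scaffold gene Mapk8ip2 was at -0.44 without overlap. Kif1bp, a kinesin-binding protein, and the light chain Klc4 were the list's members above 0, at 0.09 and 0.19.

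**Figure D2:**
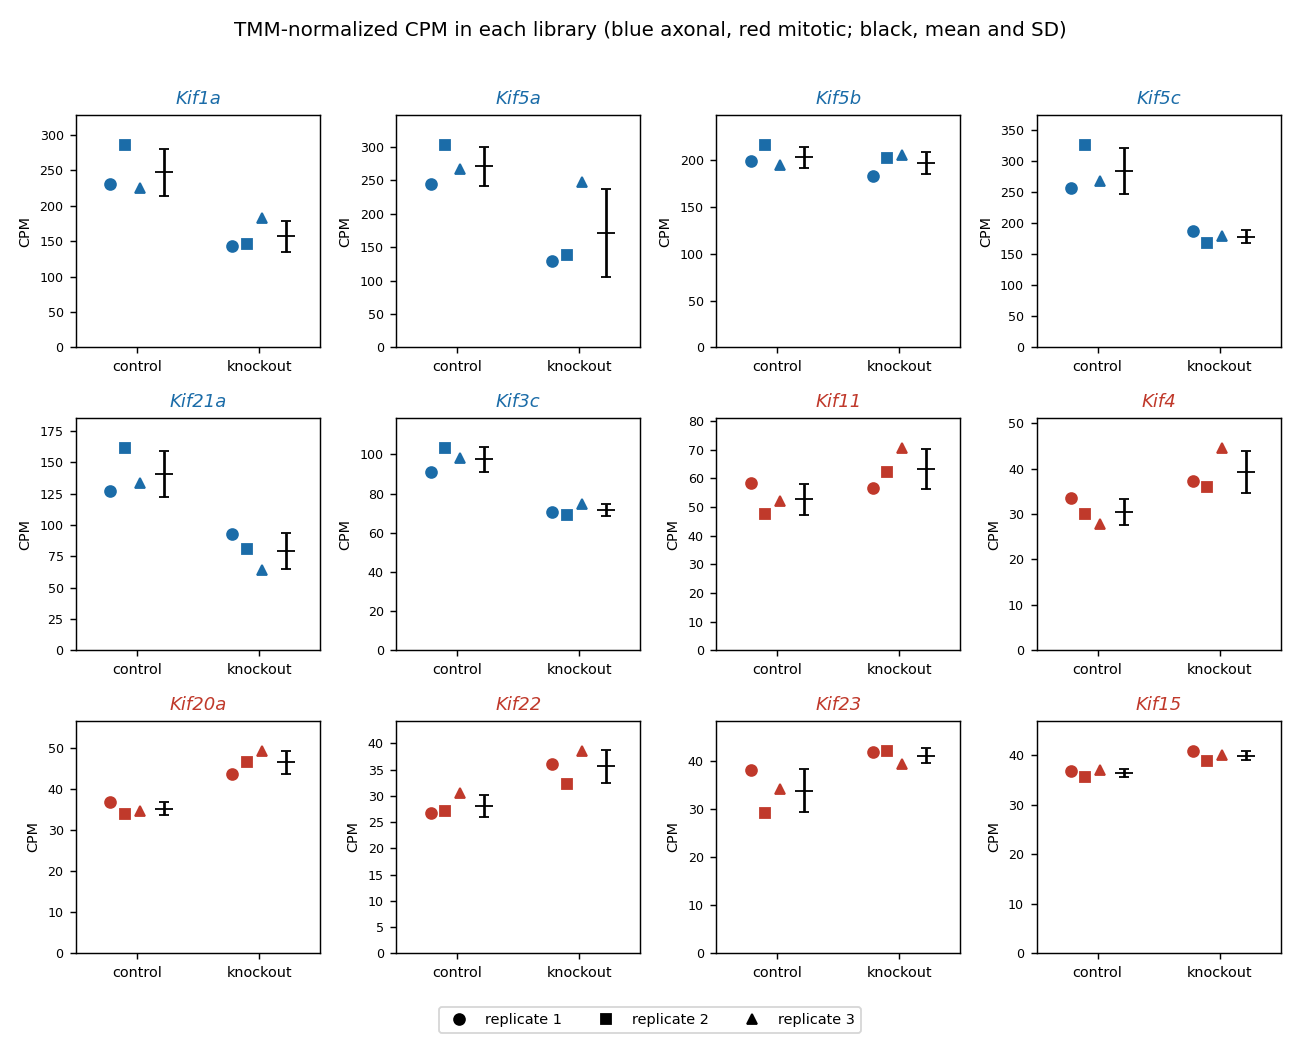
TMM-normalized CPM (y axis, from 0) of 12 kinesin genes in each library, with symbols for replicates and black bars for the mean and SD of each group; axonal genes are blue and mitotic genes red. Kif5c and Kif3c separate by group, Kif5a of knockout replicate 3 sits at 247 CPM among the controls, Kif5b overlaps, and Kif20a and Kif22 lie higher in all knockout libraries.

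Among mitotic kinesins Kif20a, Kif22 (chr7:127027729-127042471) and Kif4 (chrX:100625737-100727214), which act in cytokinesis or on chromosome arms, had the smallest p-values. Kif20a, a motor of the central spindle needed for cytokinesis, had control levels of 36.9, 34.0 and 34.6 CPM and knockout levels of 43.6, 46.6 and 49.3 CPM. All knockout libraries lay above all controls, and the log2 fold change was 0.40 (SE 0.09; 95% confidence interval 0.21 to 0.60; edgeR adjusted p = 0.0914), or 132% of control. Kif20a shares 1271 exonic bases with Cdc23 on the opposite strand. Kif22, which pushes chromosome arms toward the spindle equator, stood at 26.7, 27.0 and 30.5 CPM in the controls and at 36.1, 32.3 and 38.6 in the knockouts. These groups did not overlap, and the estimate was 0.35 on the log2 scale, with an SE of 0.11 and an edgeR adjusted p of 0.208. Kif4, which organizes chromosome arms and the spindle midzone, had control levels of 33.5, 29.95 and 27.7 CPM and knockout levels of 37.2, 35.9 and 44.5 CPM. Its estimate was 0.37 on the log2 scale, with an SE of 0.12 and an edgeR adjusted p of 0.229, with no overlap. It shares 832 exonic bases with Pdzd11 on the opposite strand.

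Kif23, Kif11 and Kif15 are motors of spindle assembly and central spindle bundling. Kif23, a subunit of the centralspindlin complex, stood at 38.1, 29.2 and 34.1 CPM in the controls and at 41.9, 42.1 and 39.3 in the knockouts, without overlap (estimate 0.28 on the log2 scale, edgeR adjusted p = 0.330; 0.18 without control replicate 2). Kif11, the motor that pushes spindle poles apart, had control levels of 58.4, 47.6 and 52.0 CPM and knockout levels of 56.8, 62.3 and 70.6 CPM. Here knockout replicate 1 lay within the control range (estimate 0.27 on the log2 scale, edgeR adjusted p = 0.367; 0.18 without knockout replicate 3). Kif15, which can back up Kif11 at the spindle, stood at 36.8, 35.6 and 37.1 CPM in the controls and at 40.9, 38.9 and 40.0 in the knockouts. The groups were separate by a narrow margin, and its log2 fold change of 0.13 was the smallest of the measured mitotic genes.

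Kif2c, which takes microtubules apart at centromeres, had a log2 fold change of 0.25 and Kif20b, a cytokinesis motor, one of 0.19, both without overlap and both at an unadjusted p above 0.05. Without knockout replicate 3 the Kif2c estimate was 0.15. Estimates for Kif14 (0.27), a cytokinesis motor, and for Kif18b (0.34) and Kif18a (0.41), which limit microtubule length in mitosis, came with overlapping groups. With a single library left out these ranged from 0.15 (knockout replicate 2) to 0.41 (control replicate 1) for Kif14. Kif18b ranged from 0.19 (knockout replicate 3) to 0.45 (control replicate 3), and Kif18a from 0.24 (control replicate 3) to 0.64 (control replicate 1). Kif18a was the least abundant, with 6.32 ± 1.81 CPM in the controls and 8.48 ± 0.620 in the knockouts. Kif2b, whose expression is known mainly from testis, had 0 counts in all 6 libraries. All 11 measured mitotic genes stayed above 0 with any library left out.

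A list of 20 spindle and cytokinesis genes that are no Kif genes showed the same direction. All 20 lay above 0, against 52.5% of all genes, with a median log2 fold change of 0.24, and 11 were higher at an unadjusted p of 0.05, against 5.6%. Birc5, part of the chromosomal passenger complex, which Kif20a brings to the central spindle, had control levels of 34.0 ± 1.41 CPM and knockout levels of 45.6 ± 3.66 CPM (adjusted p = 0.0914, edgeR). The mitotic kinase Plk1 had a log2 fold change of 0.38 and the cyclin Ccnb1 one of 0.39. The proliferation marker Mki67 (0.09), Aurka (0.09), Aurkb (0.06) and Prc1 (0.03) had the smallest estimates of this list, with overlapping groups. Among 5 further kinesin genes outside the naming rule, the minus-end spindle motor Kifc1 measured 14.0 ± 3.49 and 20.4 ± 1.22 CPM, without overlap, and the kinetochore motor Cenpe 82.6 ± 4.06 and 95.3 ± 10.3 CPM, also without overlap. Kifc3 was at 0.48 on the log2 scale without overlap, whereas Kifc5b was at -0.28 with overlap. Kifc2, at 0.81, had 33.95 CPM in knockout replicate 3 against 7.11 and 5.33 CPM in the other knockouts and 8.04 to 10.1 CPM in the controls. Skeletal muscle markers were higher too, with all 8 above 0 and a median of 0.94. They summed to 1134, 1587 and 891 CPM in the controls and to 956, 2820 and 1585 in the knockouts, with overlap, and the mitotic kinesins to 322, 283 and 304 CPM and to 353, 364 and 391. The part of the muscle cells in the mitotic values was not tested.

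Promoter sequences were examined because mitotic genes are known to share a short element, the cell cycle genes homology region (CHR), often placed near the transcription start and accompanied by CCAAT boxes that the factor NF-Y binds. Windows of 300 bases (250 before to 50 after each RefSeq start, GRCm38.p6) were found for 31 of 37 members. The axonal Kif5a, Kif5b, Kif13b and Kif21b, the mitotic Kif20a and the cilium-linked Kif19a had no window and were not searched. The CHR letters TTTGAA, searched on both strands, occurred in the windows of 9 of 11 mitotic genes, Kif2b included, namely Kif11, Kif14, Kif15, Kif18b, Kif20b, Kif22, Kif23, Kif2c and Kif4. They occurred in 1 of 9 windows of axonal genes, at one of the starts of Kif1a. The matching windows of Kif14, Kif2c, Kif4 and Kif1a lay wholly inside the GENCODE span of the gene, at RefSeq starts within it. The share over all 32851 windows was 17.9%, and over windows of genes tested 11.9%, with Kif1a and Kif1b each counted at both of their starts. Within 30 bases of the start, the CHR letters were found in 7 mitotic genes and 0 axonal genes. The share was 3.19% over all windows and 1.98% over windows of genes tested. CCAAT on either strand was found in 7 of 11 mitotic windows and 4 of 9 axonal windows, against 37.4% of all windows. The letters of these motifs do not overlap in any printed stretch. Median GC content was 59.7% for mitotic windows and 62% for axonal windows, against 52.7% for all and 60.7% for windows of genes tested.

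The stretch of 30 bases around the CHR match nearest the start is shown for the 9 mitotic genes, 5′ to 3′ on the gene's strand, so that the shared element can be read across them. Capitals mark TTTGAA or its reverse complement TTCAAA and, for Kif23, also the reverse complement of CCAAT.
Kif11 (chr19:37376351-37376380, plus strand, match begins 19 bases before the start): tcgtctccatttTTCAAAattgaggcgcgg
Kif15 (chr9:122951050-122951079, plus strand, 19 bases before): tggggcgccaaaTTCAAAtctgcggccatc
Kif22 (chr7:127042420-127042449, minus strand, 17 bases before): gggccccggtaaTTCAAAagagagaagcgg
Kif23 (chr9:61946780-61946809, minus strand, 2 bases after): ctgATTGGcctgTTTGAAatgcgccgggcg
Kif18b (chr11:102925104-102925133, minus strand, 3 bases after): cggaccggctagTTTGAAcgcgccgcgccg
Kif20b (chr19:34922353-34922382, plus strand, 7 bases after): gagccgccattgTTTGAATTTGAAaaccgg
Kif4 (chrX:100626072-100626101, plus strand, 19 bases after): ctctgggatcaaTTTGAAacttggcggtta
Kif2c (chr4:117178858-117178887, minus strand, 103 bases before): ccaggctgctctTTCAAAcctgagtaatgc
Kif14 (chr1:136467608-136467637, plus strand, 228 bases before): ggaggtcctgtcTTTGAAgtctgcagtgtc
Kif20b carries the element as a direct repeat. In GENCODE M21 on the same assembly, the stretches of Kif11, Kif14, Kif23 and Kif2c touch no exon. Those of Kif11 and Kif23 lie before the gene, whereas those of Kif14 and Kif2c lie inside it. The stretches of Kif15, Kif18b, Kif20b and Kif22 touch an exon of the gene itself, and that of Kif4 touches exons of Kif4 and Pdzd11.

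The 150 bases before the start are shown for 2 mitotic and 3 axonal genes, to set mitotic promoters with these motifs beside axonal ones without either. None of these stretches touches an annotated exon in GENCODE M21. Capitals again mark the CHR letters and CCAAT on either strand.
Kif11 (mitotic, chr19:37376232-37376381, plus strand): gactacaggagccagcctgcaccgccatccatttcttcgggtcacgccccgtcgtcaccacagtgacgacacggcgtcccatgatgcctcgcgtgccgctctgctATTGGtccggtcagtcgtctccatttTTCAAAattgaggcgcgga
Kif18b (mitotic, chr11:102925125-102925274, minus strand): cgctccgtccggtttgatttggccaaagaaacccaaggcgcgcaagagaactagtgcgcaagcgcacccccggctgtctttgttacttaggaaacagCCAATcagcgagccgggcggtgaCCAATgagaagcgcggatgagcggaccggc
Kif5c (axonal, chr2:49619136-49619285, plus strand): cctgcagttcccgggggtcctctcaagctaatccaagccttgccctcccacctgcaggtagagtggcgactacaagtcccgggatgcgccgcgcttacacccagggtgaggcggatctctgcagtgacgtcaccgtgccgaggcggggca
Kif21a (axonal, chr15:91049952-91050101, minus strand): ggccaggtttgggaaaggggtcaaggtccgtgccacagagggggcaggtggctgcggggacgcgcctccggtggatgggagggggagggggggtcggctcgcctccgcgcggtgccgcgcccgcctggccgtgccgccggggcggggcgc
Kif3c (axonal, chr12:3364982-3365131, plus strand): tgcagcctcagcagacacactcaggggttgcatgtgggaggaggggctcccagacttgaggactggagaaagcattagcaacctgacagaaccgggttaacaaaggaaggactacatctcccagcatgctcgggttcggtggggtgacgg
The Kif11 stretch holds a CCAAT box on the reverse strand beginning 45 bases before the start, and Kif18b has a pair beginning 53 and 30 bases before it. No CHR or CCAAT letters occur in the full windows of Kif5c, Kif21a or Kif3c. A match of letters is a description of these windows and does not show that a factor binds there.

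**Figure D3:**
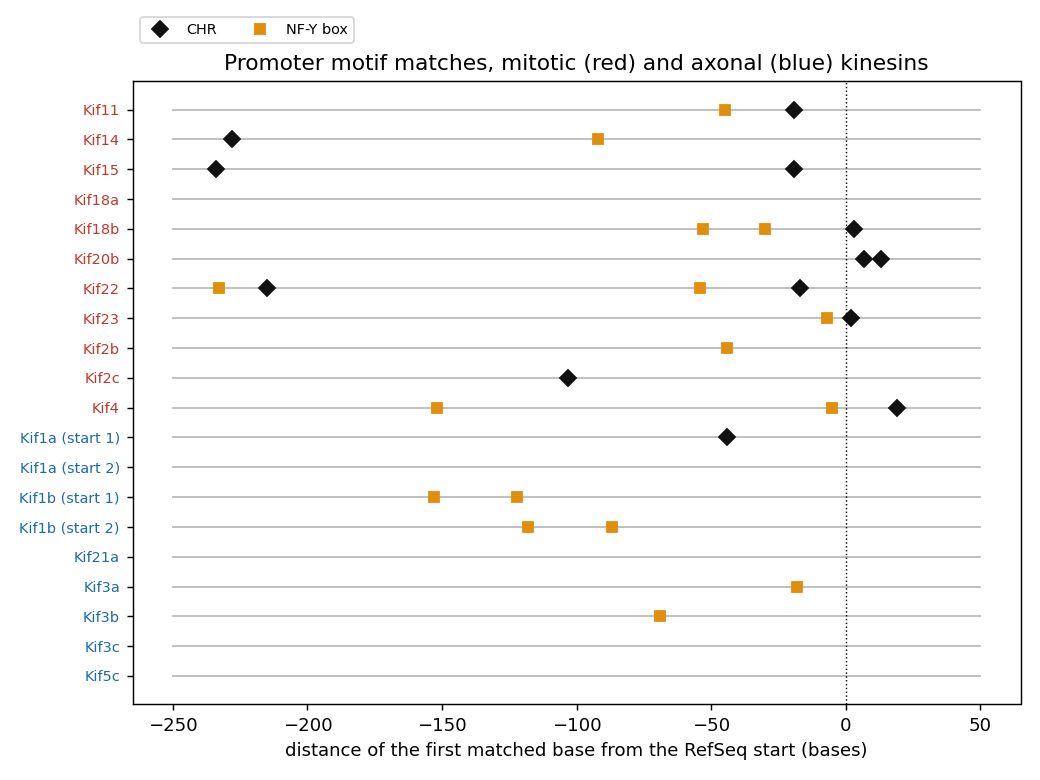
Positions of motif matches (x axis, bases from the RefSeq start) in the promoter windows of 11 mitotic genes (red names) and 7 axonal genes (blue names, with Kif1a and Kif1b at both of their starts). CHR matches gather close to the start in 7 mitotic genes, and the axonal windows hold 1 CHR match, 44 bases before a start of Kif1a.

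To compare levels between genes, CPM were divided by the summed exon length of each gene in GENCODE M21. Kif5c (39.6 ± 5.16 CPM per kb) and Kif5a (38.8 ± 4.24) were the most abundant kinesins in controls and did not differ beyond their spread. Kif1a (26.5 ± 3.58), Kif5b (25.5 ± 1.42), Kif1b (24.6 ± 2.85) and Kif21a (21.7 ± 2.83) followed, each overlapping its neighbour in this order. Of the 34 neighbouring pairs among the 35 genes past the filter, 26 overlapped. The most abundant mitotic gene was Kif20a, at 8.11 ± 0.353 CPM per kb, and the least abundant Kif18a, at 0.643 ± 0.184 CPM per kb.

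Summed per length, axonal kinesins made up 62.9%, 68.0% and 64.1% of the family's level in controls and 55.1%, 54.7% and 56.6% in knockouts. Mitotic kinesins made up 15.6%, 12.5% and 14.9% in controls and 21.0%, 21.0% and 21.1% in knockouts. These shares depend on each other, since both are parts of the same family sum. In CPM per kb, the mitotic sum was 48.8 ± 2.91 in controls and 60.1 ± 3.91 in knockouts. The axonal sum was 223 ± 22.0 in controls and 158 ± 12.6 in knockouts. The ratio of the axonal to the mitotic sum was 4.04, 5.44 and 4.31 in controls and 2.62, 2.60 and 2.68 in knockouts. Every knockout ratio was thus below every control ratio, and the knockout libraries lay closer together (SD 0.0393) than the controls (SD 0.740). The highest ratio, in control replicate 2, came with the highest neuron marker sum. Knockout replicate 3 held the lowest neuron marker sum of all 6 libraries, yet its axonal sum of 173 CPM per kb was the highest of the knockouts.

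**Figure D4:**
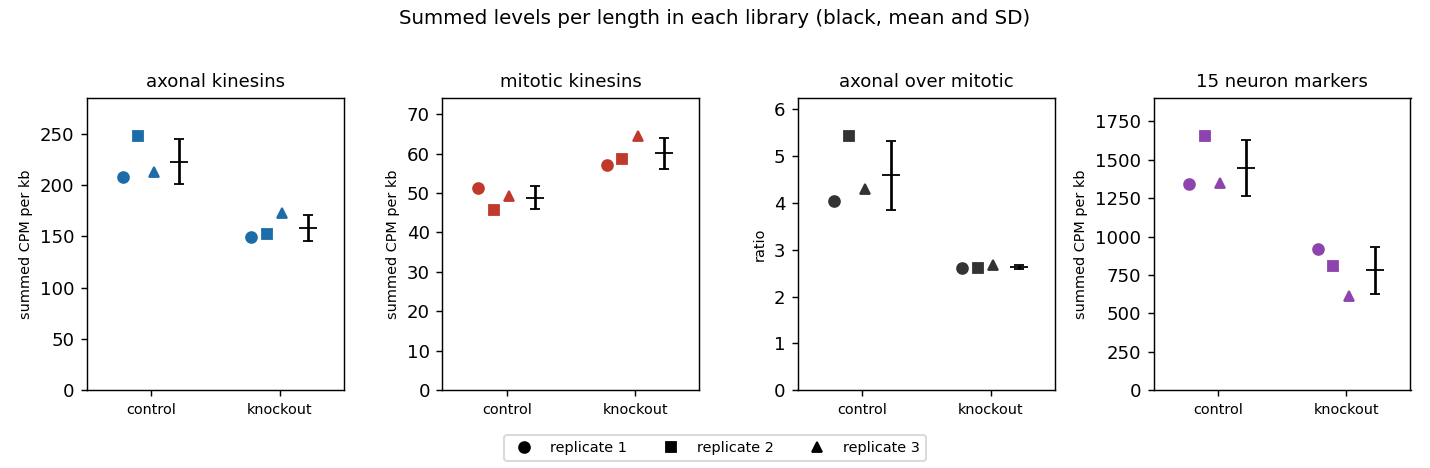
Summed CPM per kb of exon (y axes, from 0) for axonal kinesins, mitotic kinesins and 15 neuron markers, and the axonal over mitotic ratio, in each library, with black bars for mean and SD. The ratio lies between 4.04 and 5.44 in controls and between 2.60 and 2.68 in knockouts.

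Within gene subfamilies the shares of some members differed, which restates gene levels as proportions. Kif5b accounted for 26.0%, 23.4% and 24.4% of the summed Kif5 level per length in controls and for 33.9%, 37.0% and 29.95% in knockouts. All knockouts thus lay above all controls. The Kif5a share overlapped, at 36.5%, 37.4% and 38.2% in controls and 27.3%, 28.9% and 41.0% in knockouts, and so did the Kif5c share. Among Kif1 genes, Kif1c, a vesicle motor of many tissues, accounted for 23.2%, 18.3% and 23.3% in controls and 29.2%, 30.4% and 26.2% in knockouts. Kif1b accounted for a mean of 37.8% in controls and 36.8% in knockouts. The level of Kif1c itself was 101 ± 5.36 CPM among controls and 101 ± 6.59 among knockouts (log2 fold change -0.01, 95% confidence interval -0.20 to 0.18). For kinesin-2 the share of the neuron-enriched subunit Kif3c was 33.3%, 35.1% and 35.1% in controls and 33.0%, 29.9% and 31.7% in knockouts. In the kinesin-13 group, which takes microtubules apart, Kif2a had a log2 fold change of 0.07 and the mitotic Kif2c one of 0.25. Kif2a acts both at spindle poles and in neurons, and it shares 1229 exonic bases with Dimt1 on the opposite strand.

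Kif26b and Kif26a were the lower ones among the other kinesins. Both encode unusual motors that lack ATPase activity, and Kif26b is known for its part in kidney mesenchyme adhesion and noncanonical Wnt signalling. Kif26b (chr1:178529125-178939200) stood at 246, 264 and 242 CPM in the controls and at 173, 202 and 171 in the knockouts. The groups did not overlap, and the estimate was -0.46 on the log2 scale, with an SE of 0.09 and an edgeR adjusted p of 0.0791, which passed in DESeq2 (adjusted p = 0.000564). It shares 909 exonic bases with an antisense gene. Kif26a, which restrains growth factor signalling in enteric neurons, was at -0.28 with overlapping groups. The promoter of Kif26b holds CHR letters beginning 9 bases before its start, and of the non-mitotic members with a window no other had them within 30 bases.

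The other members gave small or imprecise differences. Kif13a and Kif16b, motors of endosomes, had log2 fold changes of -0.04 and 0.18, neither past an unadjusted p of 0.05. Of the 6 cilium-linked kinesins 0 passed that threshold, against 7.23% of all genes lower and 5.6% higher. At those shares 6 genes are too few for this count to show that they did not differ. Kif3a and Kif3b, whose kinesin-2 motor also drives transport into cilia, were counted among the axonal genes. Kif7, the Hedgehog regulator at the ciliary tip, had control levels of 21.9 ± 3.32 CPM and knockout levels of 23.3 ± 2.85 CPM, and Kif19a, which sets the length of motile cilia, 8.97 ± 1.93 and 12.4 ± 2.58 CPM. Kif24, a centriolar motor, was at -0.03, and Kif6, Kif9 and Kif27 had group means of 1.31 to 2.77 CPM, with estimates of 0.20, -0.35 and 0.29. Kif17, a dendritic motor, had 52 counts in knockout replicate 3 against 5 to 18 in the other libraries, and its log2 fold change of 0.89 was 0.16 without that library. Kif12 had 2 counts in all and was removed by the filter.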

How the data were processed

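Soft palate RNA was sequenced as 3 control and 3 Dlx5-/- TruSeq mRNA libraries, per the labels' protocols. STAR 2.4.1d, Partek and build mm10 are named in the submitters' processing notes. Annotation, counter and strand: not given in the sources used here. The deposited table holds estimated counts, of which 64.5% of the values above 0.5 were whole within 0.001; although its name says normalized, column totals differ. Reads shared by near-identical genes can be split. The table has 1 more column of values, tied to no sample by the labels; it was left out.

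Estimated counts were rounded. Genes with a mean of at least 1 CPM (16218) were tested with edgeR 4.0.16 (quasi-likelihood, TMM, no block; R 4.3.3) and Benjamini-Hochberg adjustment at 0.05. SE were derived from the F statistic. Alternatives were DESeq2 1.42.0, limma-trend 3.58.1 on log2(CPM + 1), other normalizations and filters, a replicate block and each library left out. The test was tried on simulated data. The rule for naming took every axonal and mitotic member past the filter and at most 4 genes with the smallest p from each partner list. Other kinesins and Klc4, Kif1bp, Mki67, Aurka, Aurkb, Prc1, Snap25, Syt1, Krt14 and Cdh1 were named after their values were seen. Members and lists were chosen with earlier results of these data known. Promoter windows came from RefSeq (GRCm38.p6), and coordinates and lengths from GENCODE M21 (GRCm38, also called mm10). The promoter motifs and the 30-base distance were chosen after the expression values were seen. Figures were drawn with matplotlib 3.10.9.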

Additional observations from a re-analysis of the deposited data

How the results depend on the processing

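All 11 axonal estimates stayed below 0 and all 11 mitotic estimates above 0 under each alternative, except Kif5b, which ranged from -0.0779 to 0.00628 with a library left out, above 0 without control replicate 2 (0.00396) or knockout replicate 1. With a library left out the axonal median lay between -0.49 and -0.37 and the mitotic median lay between 0.21 and 0.35; the axonal median was -0.65 with the neuron-enriched members only. Genes called over the whole table numbered 1 with all libraries, 41 with library totals, 679 with no filter, 74 with a filter of 5 CPM, 501 with DESeq2, 97 with limma-trend, 299 at a threshold of 0.1, and 0 to 164 with a library left out. Kinesins called were 0 in the edgeR test, 8 with no filter, 1 (Kif5c) with a filter of 5 CPM, 6 with DESeq2, 2 (Kif21a and Kif5c) with limma-trend, and 0 to 5 with a library left out. Axonal genes lower at an unadjusted p of 0.05 numbered 5 with library totals and 5 to 9 with a library left out, against 8; mitotic genes higher numbered 1 with library totals, 3 with DESeq2 and 2 to 7 with a library left out, against 5. The cause of these shifts was not tested.

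Further signs turned only for estimates near 0 or with few counts: with a library left out, Kif13a ranged from -0.124 to 0.0151, Kif1c from -0.0742 to 0.0246 (0.00392 with no filter), Kif24 from -0.22 to 0.217, Kif6 from -0.22 to 0.644 and Kif7 from -0.00893 to 0.22. Same-numbered libraries did not deviate together (correlations of -0.0138, -0.0107 and 0.0198), so the numbers were not taken as pairs. With a replicate block 0 genes were called, and the axonal and mitotic medians were -0.44 and 0.29.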
